A study of Mus musculus with 4 samples.

Results

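The vascular and red blood cell miRNAs are 8 mature miRNA names of the 1900 in the deposited mouse table, chosen by name as markers of vessel wall and blood cells. They are mmu-miR-143-3p, mmu-miR-143-5p, mmu-miR-145a-5p and mmu-miR-145a-3p of smooth muscle, mmu-miR-126a-5p of endothelium, and mmu-miR-451a, mmu-miR-144-3p and mmu-miR-144-5p of red blood cells, named below without the mouse prefix. Counts of 7 of the 8 names were found in at least 1 library, 4 names had counts in every library, and miR-126a-5p was at 0 throughout. Small RNA was sequenced after RNA immunoprecipitation for Argonaute2 (AGO2) from freshly dissected olfactory bulb of C57BL/6 mice. AGO2 is an Argonaute protein that carries mature miRNAs to their targets. The GFP-AGO2 group (replicates 1 and 3) came from mice injected with LV.PGK.GFP-AGO2, a viral vector named for a fusion of green fluorescent protein to AGO2 and for the PGK promoter, which is active in most cell types. The Control group (replicates 1 and 3) came from sham-injected mice and carries no vector. Both were taken 8 weeks after injection. The series text speaks of newborn neurons, whereas the sample labels give whole bulb tissue. No label names the antibody, so it is unknown whether RNA in the Control libraries was carried by endogenous AGO2 or came down as background. Nor is it stated whether replicates are separate mice, so the p-values below reflect the spread among the libraries as sequenced, and that spread may be technical.

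MiR-143 and miR-145a are cut from a shared primary transcript that is abundant in the smooth muscle and other mural cells of vessels, where they help to keep the contractile state. MiR-126 lies within Egfl7, a gene of endothelial cells, and supports the response of these cells to growth factors. MiR-144 and miR-451a are made from a shared transcript that the erythroid factor GATA1 drives, and mature red blood cells keep much miR-451a. MiR-451a does not pass through Dicer: its short hairpin is loaded straight into AGO2, whose own cutting activity opens it, so AGO2 is both its maker and its carrier.

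Of the 8 names, 3 matched a mature sequence in the RefSeq table (GRCm38.p6, the assembly also called mm10). The miR-144 and miR-451a sequences are shown because the erythroid pair differs in how it is made. The miR-126 hairpins are shown because their positions bear on the zeros of miR-126a-5p. In the mature sequences, written 5′ to 3′, capitals mark the seed, bases 2 to 8, which pairs with targets.
miR-451a: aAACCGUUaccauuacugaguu
miR-144-3p: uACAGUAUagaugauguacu
miR-144-5p: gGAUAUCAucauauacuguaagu
The 3 seeds differ from each other, and no other mature miRNA of the RefSeq table had any of them. In the hairpin of miR-451a (chr11:78073170-78073241, plus strand) capitals mark the mature miRNA, which spans bases 17 to 38 of 72 and so runs from the first strand of the stem into the loop, with no partner arm listed.
Mir451a hairpin: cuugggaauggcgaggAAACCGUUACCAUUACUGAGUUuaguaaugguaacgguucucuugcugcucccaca
In the hairpin of miR-144 (chr11:78073005-78073070, plus strand) capitals mark miR-144-3p, which lies wholly in the second strand of the stem, across from miR-144-5p.
Mir144 hairpin: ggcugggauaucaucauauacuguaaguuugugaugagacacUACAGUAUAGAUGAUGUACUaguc
The miR-126a hairpin (chr2:26591357-26591429, plus strand) and the miR-126b hairpin (chr2:26591363-26591420, minus strand) come from opposite strands of the same stretch. Capitals mark the table's position of miR-126a-5p in the first and miR-126b-3p in the second.
Mir126a hairpin: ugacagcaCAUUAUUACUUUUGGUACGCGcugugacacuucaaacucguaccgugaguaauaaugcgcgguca
Mir126b hairpin: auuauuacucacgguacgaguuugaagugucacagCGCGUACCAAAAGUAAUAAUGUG

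By the positions in the table (mm10, all single), miR-143-3p lies on chromosome 18 at 61649199 to 61649219 and miR-143-5p at 61649233 to 61649253, both on the minus strand. MiR-145a-5p (61647866 to 61647888) and miR-145a-3p (61647827 to 61647848) lie on the same strand, with 1310 bases between miR-145a-5p and miR-143-3p. MiR-451a lies on chromosome 11 at 78073186 to 78073207, and 119 bases separate it from miR-144-3p (78073047 to 78073066); miR-144-5p is at 78073010 to 78073032. In the GENCODE M21 annotation these names fall in no gene other than miRNA genes. MiR-451a also falls in an exon of Mir451b, a miRNA gene on the minus strand, although 11 bases separate it from the name miR-451b. MiR-126a-5p (chromosome 2, 26591365 to 26591385, plus strand) falls in an exon of at least 1 annotated transcript of Egfl7.

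The libraries held 1858354 to 2809758 miRNA counts in GFP-AGO2 and 673916 to 1006861 in Control, with 828 to 843 and 714 to 804 names detected. Levels are given as CPM, counts scaled to the usual CPM unit by the library size after TMM scaling, which sets the bulk of the miRNAs equal between libraries. Changes were tested by edgeR's quasi-likelihood test over 457 names with enough counts, with Benjamini-Hochberg adjustment over all of them, and called at an adjusted p under 0.05. Neuronal miRNAs were present in every library: miR-124-3p, a miRNA of neurons, had 6309 and 5277 CPM in GFP-AGO2 and 5618 and 7280 CPM in Control, and miR-128-3p had 2392 and 1924 CPM in GFP-AGO2 and 2024 and 1793 CPM in Control. Neither passed the test. Over the 5 neuronal names 1 was called higher and 1 lower, and their summed level was 9537 to 11723 CPM in GFP-AGO2 and 9732 to 11090 CPM in Control.

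All 7 detected vascular and red blood cell miRNAs were lower in both GFP-AGO2 libraries than in both Control libraries on the CPM scale. The 4 tested ones stand against 35.2% of all 457 tested names that were separated in this direction. The other 3 were too rare to be tested and have no such base. Each of the 7 had its lowest level in GFP-AGO2 replicate 1, with miR-144-5p tied at 0 in both GFP-AGO2 libraries. In that replicate miR-144-3p, miR-145a-5p and miR-451a had only 0, 0 and 1 counts. No share of all tested names was computed for this order, so it is not read as a trait of these names. Only 4 of the 8 had enough counts to be tested, and 2 of these, miR-145a-3p and miR-451a, fell. Of all 457 tested names 34.4% were called, with 17.1% of all tested names called lower and 17.3% called higher. No member was called with no scaling between libraries, where 264 names were called higher and 20 lower, or when Control replicate 1 or Control replicate 3 was left out. In these 3 edgeR fits 1, 2 and 3 members had an unadjusted p under 0.05. The median log2 fold change was -2.48 over the 4 tested members and -0.01 over all tested names. The 4 are not a fair sample of the 8: miR-451a reached the count minimum in the Control libraries alone, and miR-145a-3p and miR-143-5p in both Control libraries and GFP-AGO2 replicate 3. These libraries hold RNA immunoprecipitated from bulk tissue, so a CPM is not the level in the tissue. Fewer cells of a type, less miRNA per cell, less of it carried by AGO2 and background in Control cannot be told apart.

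**Figure D1:**
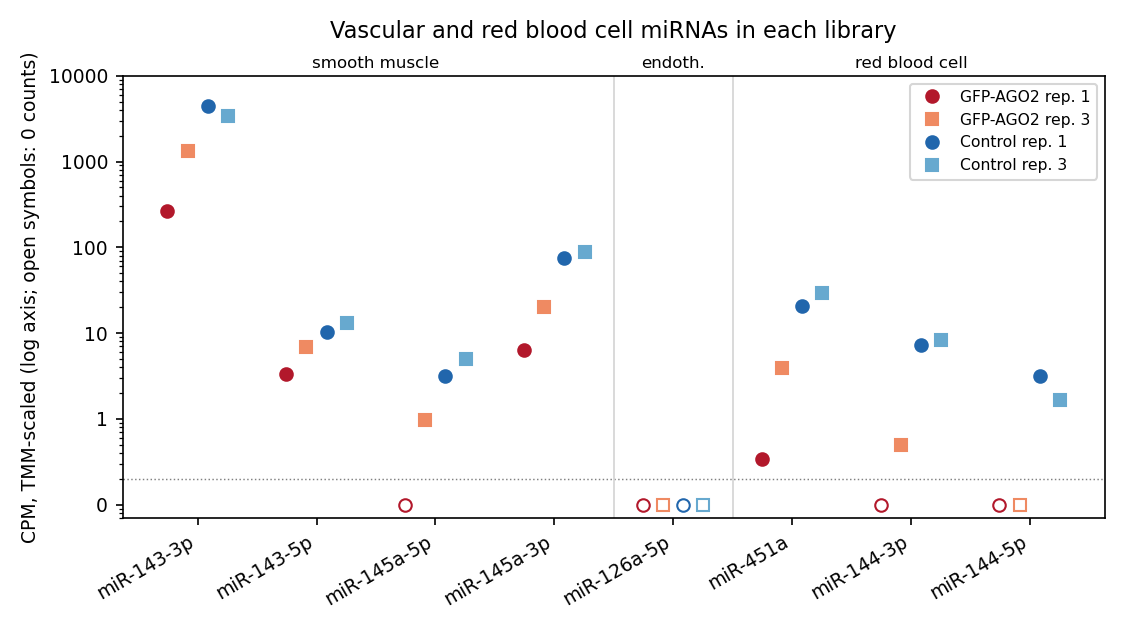
Level of each of the 8 miRNAs in each library, in TMM-scaled CPM on a log axis, with 1 symbol per library and open symbols for 0 counts. MiR-143-3p stands above the rest in every library, at 267 and 1325 CPM in GFP-AGO2 and 4438 and 3350 CPM in Control. GFP-AGO2 replicate 1 is the lowest symbol for the 7 detected names, tied at 0 with replicate 3 for miR-144-5p.

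MiR-143-3p, the main strand of the smooth muscle hairpin, made up nearly all of the counts of the 8 names, between 95.8% and 97.6% in each library. It had 792 and 2701 counts in GFP-AGO2 replicates 1 and 3 and 4269 and 2029 counts in Control replicates 1 and 3. Scaled, this was 267 and 1325 CPM in GFP-AGO2 and 4438 and 3350 CPM in Control. The groups did not overlap in CPM, although the raw count of GFP-AGO2 replicate 3 exceeded that of Control replicate 3. By counts it ranked 70th among the names of GFP-AGO2 replicate 3 and lower in GFP-AGO2 replicate 1, against 34th and 42nd in Control replicates 1 and 3. It averaged 796 ± 749 CPM in GFP-AGO2 and 3894 ± 769 CPM in Control (SD, n = 2 each). The log2 fold change was -2.29 (SE 0.74), a 4.9-fold lower level in GFP-AGO2, and the edgeR adjusted p = 0.0637 did not pass the threshold. This large error came with a wide gap between the GFP-AGO2 libraries. The other 50 names with a mean CPM at least as high had a median SE of 0.14 and a highest SE of 0.39.

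MiR-143-3p was called under DESeq2 (-2.32, adjusted p = 0.0454) and with no filter on low counts, where the edgeR SE was 0.20 in place of 0.74. It was also called without GFP-AGO2 replicate 1 (-1.56) or replicate 3 (-3.87), fits that leave the gap between these libraries out of the error. As a share of all miRNA counts it took 0.0282% of GFP-AGO2 replicate 1 (95% exact interval 0.0263 to 0.0302) and 0.145% of GFP-AGO2 replicate 3 (0.14 to 0.151). It took 0.424% (0.411 to 0.437) and 0.301% (0.288 to 0.314) of Control replicates 1 and 3. These intervals cover counting error only, since PCR copies count as reads, and none of the 4 overlapped another.

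MiR-143-5p, the passenger strand of the same hairpin, had 10 and 14 counts in GFP-AGO2 and 10 and 8 counts in Control, or 3.37 and 6.87 CPM in GFP-AGO2 and 10.4 and 13.2 CPM in Control. Its log2 fold change was -1.21 (SE 0.67, edgeR adjusted p = 0.223), and with no scaling between libraries the sign turned (0.41, adjusted p = 0.695). The 5p arm held 1.25% (95% exact interval 0.6 to 2.28) and 0.516% (0.282 to 0.864) of the miR-143 counts in GFP-AGO2 replicates 1 and 3. In Control replicates 1 and 3 it held 0.234% (0.112 to 0.429) and 0.393% (0.17 to 0.772). The share was higher in both GFP-AGO2 libraries than in both Control libraries, at 0.881% ± 0.517 in GFP-AGO2 and 0.313% ± 0.112 in Control (SD, n = 2 each). The exact two-sided permutation test gave p = 0.333, the smallest value that 2 libraries against 2 allow, or 0.667 after adjustment over the 4 ratios tested. The interval of GFP-AGO2 replicate 3 overlapped those of both Control libraries, and that of GFP-AGO2 replicate 1 overlapped that of Control replicate 3.

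MiR-145a-3p had 19 and 41 counts in GFP-AGO2 replicates 1 and 3 and 73 and 54 counts in Control replicates 1 and 3. This was 6.39 and 20.1 CPM in GFP-AGO2 and 75.9 and 89.1 CPM in Control, and the groups did not overlap even in raw counts, although the GFP-AGO2 libraries were the deeper ones. It averaged 13.3 ± 9.7 CPM in GFP-AGO2 and 82.5 ± 9.38 CPM in Control (SD, n = 2 each). It fell by 2.66 on the log2 scale (SE 0.58, edgeR adjusted p = 0.0206), but the call was lost when Control replicate 1 was left out (-2.73, adjusted p = 0.0571) and when Control replicate 3 was (-2.59, adjusted p = 0.0581). With no scaling it had -1.08 (adjusted p = 0.142).

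MiR-145a-5p is the strand usually taken as the functional one of this hairpin, and it was the rarer one here. It had 0 and 2 counts in GFP-AGO2 and 3 and 3 counts in Control, too few to be tested. The pooled level was 0.399 CPM in GFP-AGO2 and 3.83 CPM in Control, a ratio of 0.104 with a 95% counting interval of 0.0103 to 0.583. This interval pools the reads of each group and leaves out the spread between libraries. The 5p arm held 0 of 19 and 2 of 43 miR-145a counts in GFP-AGO2 replicates 1 and 3, and 3 of 76 and 3 of 57 in Control replicates 1 and 3. These are 0% (95% exact interval 0 to 17.6), 4.65% (0.568 to 15.8), 3.95% (0.822 to 11.1) and 5.26% (1.1 to 14.6). The 3p strand thus held most of the counts of the hairpin in each library, and the intervals of the 4 libraries overlapped. The exact permutation test gave p = 0.667, and its smallest possible value of 0.333 could not have passed the threshold.

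MiR-143-3p outnumbered the 5p strand of its neighbour by far in each library. The log2 ratio of miR-143-3p to miR-145a-5p, with 0.5 added to each count, was 10.63 and 10.08 in GFP-AGO2 and 10.25 and 9.18 in Control. MiR-145a-5p had only 0 to 3 counts per library, and the ratio of GFP-AGO2 replicate 1 was set by the added 0.5. The group means differed by 0.638, less than the SD of 0.759 within Control (exact permutation p = 0.667). Summed, the 4 smooth muscle names took 0.0292% and 0.148% of the counts of GFP-AGO2 replicates 1 and 3 and 0.433% and 0.311% of those of Control replicates 1 and 3. The mean was 0.0888% ± 0.0843 in GFP-AGO2 and 0.372% ± 0.0861 in Control (SD, n = 2 each).

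MiR-126a-5p, the endothelial member, was listed at 0 in the 4 libraries, as were the other 3 miR-126 names, miR-126a-3p, miR-126b-5p and miR-126b-3p. The position of miR-126a-5p shares all of its 21 bases with miR-126b-3p on the other strand, as the hairpins above show. The counting command in the file header has no strand option and none for reads that overlap more than 1 name, and 64 of the 75 overlapping names of the table were at 0 in every library. That is 85.3%, against 40% of the 1825 names that overlap no other. For this reason the zeros of miR-126a-5p say nothing about its presence, and no level of endothelial miRNA was obtained. The other 7 names of smooth muscle and red blood cells overlap no other name in the table.

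MiR-451a had 1 and 8 counts in GFP-AGO2 replicates 1 and 3 and 20 and 18 counts in Control replicates 1 and 3. This was 0.337 and 3.93 CPM in GFP-AGO2 and 20.8 and 29.7 CPM in Control, and the groups did not overlap in raw counts either. It averaged 2.13 ± 2.54 CPM in GFP-AGO2 and 25.3 ± 6.31 CPM in Control (SD, n = 2 each). It fell by 3.63 on the log2 scale (SE 0.99, edgeR adjusted p = 0.0406), and 10 of the 457 tested names had a lower value. MiR-451a entered the test through the Control libraries alone, so the call and the rank are not independent of its high Control level. The call was lost without Control replicate 1 (-3.84, adjusted p = 0.0932), without Control replicate 3 (-3.42, adjusted p = 0.109) and with no scaling (-2.05, adjusted p = 0.0549). The size rested on the single count of GFP-AGO2 replicate 1: without that library the log2 fold change was -2.64, and without GFP-AGO2 replicate 3 it was -5.90.

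MiR-144, from the same transcript, was rarer still and was not tested. MiR-144-3p had 0 and 1 counts in GFP-AGO2 and 7 and 5 counts in Control. The pooled level was 0.2 CPM in GFP-AGO2 and 7.65 CPM in Control, a ratio of 0.0261 with a 95% counting interval of 0.00061 to 0.176. MiR-144-5p had no count in GFP-AGO2 and 3 and 1 counts in Control. Its pooled level was 0 in GFP-AGO2 and 2.55 CPM in Control, and the 95% counting interval of the ratio was 0 to 0.474. Both directions match that of miR-451a, but each rests on a handful of reads. The counting intervals pool the reads of each group and leave out the spread between libraries.

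The log2 ratio of miR-451a to miR-144-3p, with 0.5 added to each count, was 1.58 and 2.5 in GFP-AGO2 and 1.45 and 1.75 in Control. MiR-451a had the higher count in each library, but in GFP-AGO2 replicate 1 this was 1 count against 0, too few to order them. The mean difference of 0.443 lay within the SD of 0.649 in GFP-AGO2 (exact permutation p = 0.667). Together the 3 red blood cell names had 1 and 9 counts in GFP-AGO2 replicates 1 and 3 and 30 and 24 in Control replicates 1 and 3. They took 3.56e-05% (95% exact interval 9.01e-07 to 0.000198) and 0.000484% (0.000221 to 0.000919) of the counts of the GFP-AGO2 libraries. In Control they took 0.00298% (0.00201 to 0.00425) and 0.00356% (0.00228 to 0.0053). The intervals of the groups did not overlap, but neither did those of GFP-AGO2 replicates 1 and 3, and all cover counting error only. Red blood cell miRNAs were a trace in both groups: miR-143-3p alone had 3493 counts in GFP-AGO2 and 6298 in Control, where miR-451a had 9 and 38.

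MiR-144-3p shares bases 2 to 7, but not base 8, of its seed with miR-101a-3p, a name looked up for that match and not set by the naming rule. That miRNA had 8093 and 5036 counts in GFP-AGO2 and 1404 and 732 counts in Control, so that it far outnumbered miR-144-3p in each library.

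**Figure D2:**
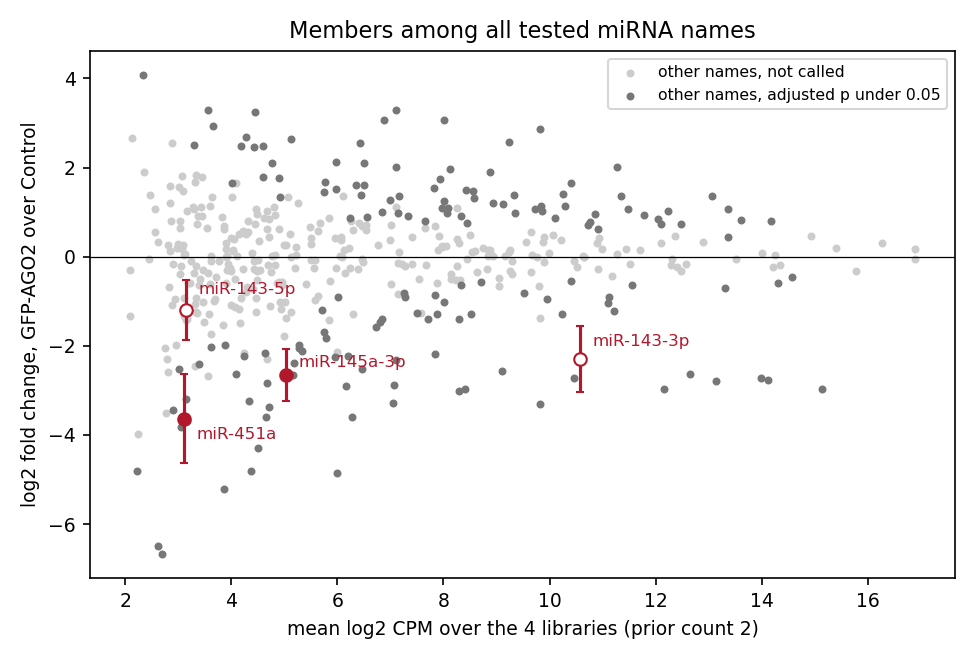
Log2 fold change, GFP-AGO2 over Control, against mean log2 CPM for the 457 tested names, with the 4 tested members in red (bars: SE; filled: adjusted p under 0.05). The 4 lie below 0, between -1.21 for miR-143-5p and -3.63 for miR-451a, and miR-143-3p is the only one of them at a high level.

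The GFP-AGO2 libraries disagreed on these miRNAs more than on most others. MiR-143-3p was 4.97 times as high in replicate 3 as in replicate 1 of GFP-AGO2, a gap of 2.31 on the log2 CPM scale (prior count 2), and 3 of the 457 tested names had a larger gap in that direction. For miR-145a-3p, miR-451a and miR-143-5p the gaps were 1.49, 1.73 and 0.82, with 19, 17 and 66 names above them. Over all tested names the median gap was 0.09, with quartiles at -0.17 and 0.46. Between the Control libraries the same 4 miRNAs differed by -0.41 to 0.49, against quartiles of -0.27 and 0.33 over all names. MiR-143-3p and miR-451a lay outside these quartiles, and 184 and 153 names had a larger absolute Control gap than theirs.

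**Figure D3:**
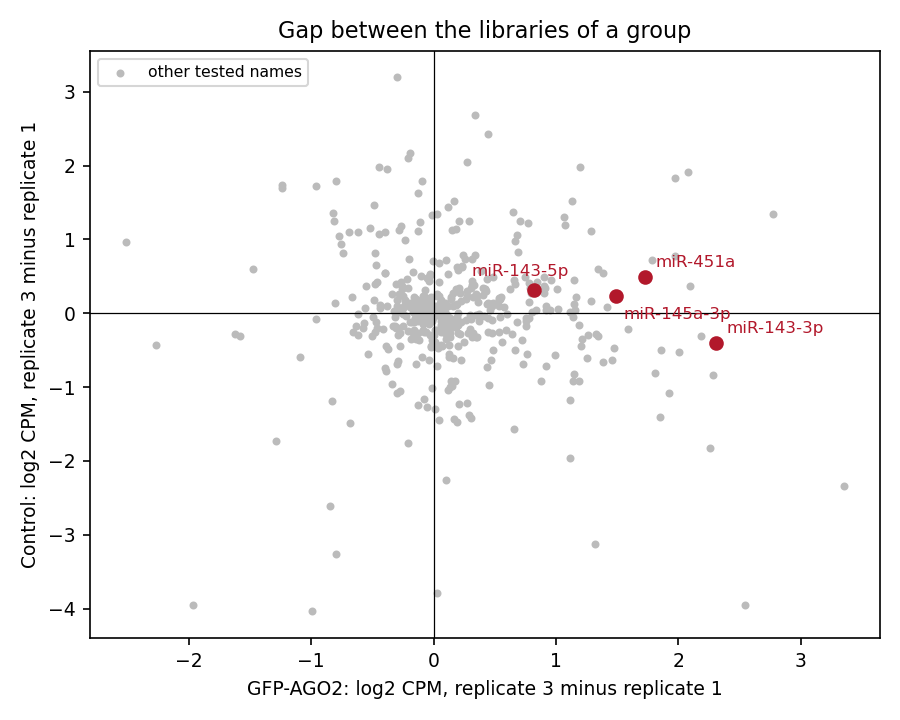
Difference in log2 CPM between replicate 3 and replicate 1 within GFP-AGO2 (horizontal) and within Control (vertical) for the 457 tested names, with the 4 tested members in red. The members lie to the right, at 0.82 to 2.31 in GFP-AGO2, and at -0.41 to 0.49 in Control.

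Several, but not all, markers of other cells of vessels and blood were lower in the same libraries, and their part in the results above was not tested. The counts of calls in these lists stand against the 17.1% of all tested names called lower. The white blood cell list had 7 of its 9 names in the table and 3 tested, of which 2 fell and none rose, with a median log2 fold change of -2.17. MiR-146a-5p, an immune-induced miRNA, had 57.2 and 174 CPM in GFP-AGO2 and 556 and 479 CPM in Control (log2 fold change -2.17, SE 0.53, edgeR adjusted p = 0.0281). MiR-150-5p of lymphocytes had 11.1 and 20.1 CPM in GFP-AGO2 and 71.7 and 90.8 CPM in Control (-2.38, SE 0.41, edgeR adjusted p = 0.00957). MiR-155-5p, of activated immune cells, had 4.71 and 12.3 CPM in GFP-AGO2 and 9.36 and 8.25 CPM in Control (-0.09, SE 0.72, edgeR adjusted p = 0.947), so that its groups overlapped. The summed level of this list was 73 and 210 CPM in GFP-AGO2 and 652 and 584 CPM in Control. Of its defining members, miR-223-3p, of neutrophils and other myeloid cells, had 1 count in a single Control library, and miR-142-3p, which overlaps another name, was listed at 0. Their other arms were too rare to be tested. MiR-142-5p had 0 and 2 counts in GFP-AGO2 and 11 and 3 counts in Control. MiR-223-5p had 0 and 6 counts in GFP-AGO2 and 3 and 0 counts in Control, so that its groups overlapped.

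The pericyte and fibroblast list had 6 names, 2 tested, 1 called lower and none higher. MiR-199a-3p had 22.5 and 36.8 CPM in GFP-AGO2 and 98.8 and 90.8 CPM in Control (log2 fold change -1.68, SE 0.34, edgeR adjusted p = 0.0152). MiR-199a-5p had 2.69 and 25.5 CPM in GFP-AGO2 and 38.5 and 99 CPM in Control (-2.3, SE 1.04, edgeR adjusted p = 0.146). Both have 2 positions and so an uncertain origin. MiR-214-3p, not tested, had 0.337 and 3.93 CPM in GFP-AGO2 and 3.12 and 3.3 CPM in Control, again with overlap. The summed level of this list was 27.9 and 69.2 CPM in GFP-AGO2 and 151 and 193 CPM in Control, again lowest in GFP-AGO2 replicate 1. Of 7 further names listed for red blood cells 3 were in the table and none was tested. MiR-486-5p, which overlaps another name, and miR-451b were at 0, and miR-363-3p had 1 and 0 counts in GFP-AGO2 and 3 and 4 counts in Control. The summed level of each of these lists was lower in both GFP-AGO2 libraries than in both Control libraries. Of all 457 tested names 35.2% were separated in this direction, and the neuronal sum overlapped between the groups. Each sum rested on few names. In Control replicates 1 and 3 miR-146a-5p held 556 and 479 of the 652 and 584 CPM of white blood cell names. The miR-199a strands held most of the pericyte and fibroblast sum, and miR-363-3p all of the further red blood cell sum.

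The names whose pattern over the 4 libraries lay nearest to that of miR-143-3p were found by the root mean square difference in log2 CPM after centring each name on its mean. They were miR-146a-5p at 0.31, miR-182-3p at 0.33, miR-351-5p at 0.38, miR-224-5p at 0.39 and miR-200b-5p at 0.44, against a median of 1.62 over all other tested names. MiR-145a-3p lay at 0.37 and miR-451a at 0.46 from miR-143-3p, while its own passenger strand miR-143-5p lay at 0.99. Nearest to miR-451a were miR-5114 at 0.21, miR-6538 at 0.25, miR-96-5p at 0.27, miR-3535 at 0.29 and miR-6516-3p at 0.3, against a median of 1.75. MiR-182-3p, miR-200b-5p and miR-96-5p belong to the epithelial and sensory miR-200 and miR-183 groups, not to vessels or blood. MiR-200b-5p had 354 and 781 CPM in GFP-AGO2 and 3833 and 3683 CPM in Control (log2 fold change -2.73, SE 0.39, edgeR adjusted p = 0.0071). MiR-96-5p had 196 and 396 CPM in GFP-AGO2 and 2597 and 3272 CPM in Control (-3.31, SE 0.38, edgeR adjusted p = 0.005). The nearest names thus included miRNAs of other cell types. They were picked for a pattern like that of miR-143-3p or miR-451a, so their lower level in GFP-AGO2 follows from that choice.

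**Figure D4:**
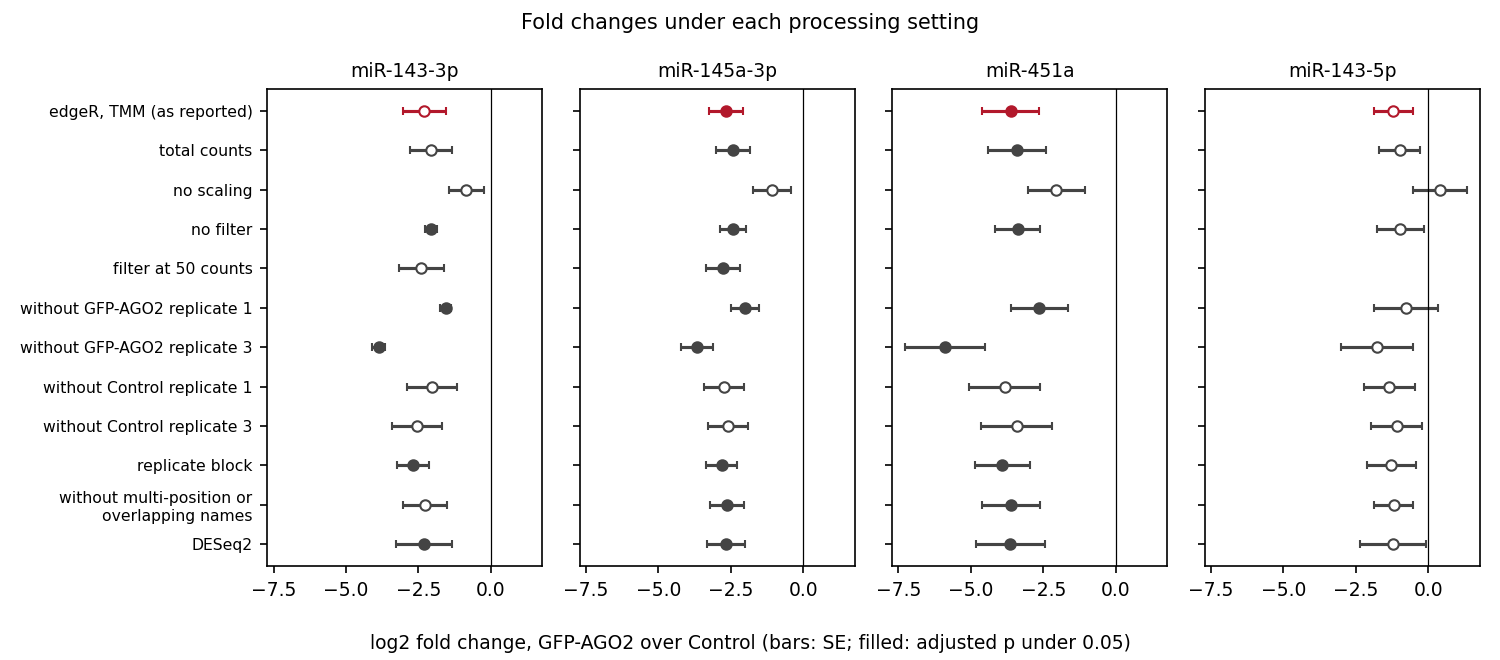
Log2 fold change, GFP-AGO2 over Control, of the 4 tested members under each processing setting (bars: SE; filled: adjusted p under 0.05). MiR-143-3p, miR-145a-3p and miR-451a stay below 0 in each setting shown, miR-143-5p reaches 0.41 with no scaling, and none of the 4 is called with no scaling or without either Control library.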

How the data were processed

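The authors deposited whole-number counts per mature miRNA name, which per the file headers came from featureCounts (version v1.4.6-p1, primary alignments, a miRBase annotation for mm10). Cutadapt and STAR were used, per the submitters' processing notes. Columns were tied to samples by title. Counts were fitted with edgeR 4.0.16 (R 4.3.3) as a quasi-likelihood F test, two-sided, with TMM factors and filterByExpr at a minimum count of 10, which kept 457 names with 99.88% to 99.93% of each library's counts. SE is the log2 fold change over the square root of F. The script was tested on simulated data. DESeq2 1.42.0 was an alternative. Replicate libraries were not copies of each other (chi-square 47711 on 475 degrees of freedom in GFP-AGO2, 4564 on 383 in Control). Share intervals are exact Clopper-Pearson intervals. Members and lists were chosen with earlier results of these data known. Names given in the text are the 8 members, names overlapping them, the 2 most abundant tested names of each marker list, and the 5 names nearest in pattern to miR-143-3p and miR-451a; other names are further members of the lists, or are marked as chosen later or outside the rule.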

Additional observations from a re-analysis of the deposited data

How the results depend on the processing

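Of the 101 values recomputed under an alternative, 78 stayed close to the value reported: counts of calls within 1.5 times, tested fold changes with the same direction and side of the threshold, and other values within the spread between replicates. With no scaling, which moved the median log2 fold change of all tested names by 1.68, 264 names were called higher and 20 lower, and none of the members; miR-451a had -2.05, miR-145a-3p -1.08, miR-143-3p -0.85 and miR-143-5p 0.41. With total counts, which moved that median by 0.22, the called members were the same as with TMM. With the filter at 50 counts 1 member was called, miR-145a-3p, since miR-451a and miR-143-5p were not tested. MiR-143-3p was called with no filter (-2.07, adjusted p = 3.07e-23), with DESeq2 (-2.32) and with the replicate block (-2.69, adjusted p = 0.0045). The replicate block called 3 members lower, and 79 names higher and 85 lower in all. The labels do not say what a number shares, and the deviations of same-numbered libraries from their group means had a correlation of -0.0606 over names. Leaving out 1 library at a time, 47 to 94 names were called higher and 43 to 106 lower, and 0 to 3 members; without Control replicate 1 or Control replicate 3 no member was called by edgeR (2 and 3 had an unadjusted p under 0.05, against 1 with no scaling), and adjusted p-values of the 4 were 0.0571 to 0.424. The ranges were -5.90 to -2.64 for miR-451a, -3.67 to -2.03 for miR-145a-3p, -3.87 to -1.56 for miR-143-3p and -1.77 to -0.76 for miR-143-5p. Without miR-200 and miR-183 counts in the denominator, the share difference was -0.395 points for smooth muscle, against -0.283, and -0.00402 points for red blood cell names, against -0.00301. With a limit of 3 counts, a count of 0 allows a share of up to 0.000107% to 0.000161% in GFP-AGO2 and 0.000298% to 0.000445% in Control. The exact two-sided 95% intervals reach 0.000131% to 0.000199% in GFP-AGO2 and 0.000366% to 0.000547% in Control. These limits apply to names that overlap no other, and they do not bound miR-126a-5p.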

Other observations

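Names with the largest gaps upward from GFP-AGO2 replicate 1 to replicate 3 were looked up after their values had been seen. Gaps in the other direction were not ranked. In the upward direction 3 names had a larger gap than miR-143-3p. They were miR-483-5p (4.71 and 59.4 CPM in GFP-AGO2 replicates 1 and 3), miR-199a-5p (2.69 and 25.5 CPM) and miR-483-3p (0.337 and 7.85 CPM). MiR-483 lies within Igf2, a growth factor gene that in the adult brain is expressed mainly in meninges and choroid plexus. MiR-483-5p had 63.4 and 11.6 CPM in Control replicates 1 and 3, so that its groups overlapped (log2 fold change -0.3, SE 1.24, edgeR adjusted p = 0.883). The next 2 names after miR-143-3p were miR-450a-5p, at 2.36 and 16.2 CPM in GFP-AGO2 replicates 1 and 3 and 33.3 and 18.2 CPM in Control replicates 1 and 3, and miR-322-3p, at 3.03 and 19.1 CPM in GFP-AGO2 and 32.2 and 8.25 CPM in Control.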
